A study of Mus musculus with 18 samples.

Results

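The difference between the Treg effect in fat and the Treg effect in lymph node was examined gene by gene. The Treg effect is the log2 signal of CD25+ CD4 T cells (Treg) minus that of CD25- CD4 T cells (Tconv) from the same tissue, and the interaction is that effect in fat minus that effect in lymph node. A positive interaction means that the Treg effect was higher in fat. Of the 18 arrays of the series, 12 hold the 4 groups concerned, with 3 arrays per group. Fat cells came from the abdominal (epididymal) adipose tissue of male C57Bl/6 mice aged 25 to 35 weeks, pooled from 8 to 10 mice per array and sorted as B220-, CD11b-, CD8a-, CD4+ and TCRb+. Lymph node cells came from cervical, inguinal and mesenteric nodes of C57BL/6 mice aged 32 to 36 weeks, whose sex the labels do not state. They were pooled from 3 to 6 mice per array and sorted with the same antibodies except TCRb. CD25 separated Treg from Tconv in both tissues, so CD25- cells can include some Treg and CD25+ cells some activated Tconv. Among 12821 genes tested, 622 had a called interaction (limma, Benjamini-Hochberg adjusted p under 0.05), and each was assigned to a pattern and to the group that carried the change.

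Treg are CD4 T cells that restrain immune responses, and the transcription factor Foxp3 defines their identity. In lymph nodes most CD4 T cells are naive and recirculate, and a Treg differs from a Tconv there by Foxp3 among other genes. In visceral fat the CD4 T cells of both kinds are antigen-experienced tissue residents. Fat Treg are known for the nuclear receptor Pparg, which drives lipid handling genes, and for the anti-inflammatory cytokine Il10. Fat Tconv are known for type 1 helper features, such as the cytokine interferon gamma (Ifng) and its regulator T-bet (Tbx21). An interaction can therefore come from either cell type, and only the 4 groups read together show which of them moved.

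Cd3e, a defining T cell marker, had group means of 1950, 2210, 1540 and 1700 units (RMA intensity, linear scale) in fat Treg, fat Tconv, lymph node Treg and lymph node Tconv. None of 9 T cell markers and none of 11 reference genes had a called interaction by limma, and 1 and 0 of them had an unadjusted p under 0.05. Y-linked signal was present in both tissues: Eif2s3y averaged 1410, 1160, 2030 and 2000 units in the same group order, and Kdm5d 145, 164, 240 and 222. Y-linked Uty (509, 263, 44.3 and 43.3) and X-linked Xist (142, 135, 38.7 and 53.1) were higher in fat. Signals of markers of other cells were higher in the fat arrays, in sums not corrected for the higher median signal of those arrays. The summed signal of 22 macrophage and monocyte markers was 8740, 3320 and 9520 in fat Treg replicates 1 to 3, and 5970, 2540 and 7040 in fat Tconv, against 1440 to 1790 in the 6 lymph node arrays. Of defining markers, Adipoq of adipocytes averaged 59.1 and 45.4 units in fat Treg and fat Tconv, against 13.5 and 14.4 in lymph node Treg and Tconv. Itgam (CD11b) of macrophages averaged 24.5 and 28.4 in fat. Both genes were under the 65.9 units that served as the filter. Most other macrophage markers were not: of the 22, 20 and 17 averaged above it in fat Treg and fat Tconv. In lymph node Treg and Tconv 9 and 10 did. Of the 9 adipocyte markers, 4 did in each fat group and 1 in each lymph node group. Summed signals of 9 adipocyte markers reached 2990 to 7040 in fat Treg and 2600 to 6210 in fat Tconv against 262 to 318 in lymph node. Those of 19 stromal and endothelial markers reached 7740 to 17900, 7630 to 14700 and 1050 to 1960. Of the adipocyte list Fabp4 was the highest, averaging 2500 and 2250 units in fat Treg and fat Tconv. Of the stromal list it was Gsn, at 4850 and 5210. None of 20 tested macrophage markers was called, and 0 had an unadjusted p under 0.05 by limma, although all 20 had an interaction above 0, with a median of 0.46 and a maximum of 1.54 for Cd163. The summed signal of 10 dendritic cell and MHC class II markers was 3650, 2330 and 3890 in fat Treg replicates 1 to 3 and 2420, 1760 and 2090 in fat Tconv, against 1240 to 2050 in lymph node. Of its 8 tested members 1 was called, H2-Eb1 (0.97, limma adjusted p = 0.04), which lost the call without any single array but fat Treg 2 and fat Tconv 1. With the replicate number as a block, 3 of the 20 macrophage markers and 3 of 10 stromal markers were called. The median signal of the fat arrays (76.9 to 82.2) lay above that of the lymph node arrays (57.9 to 63), so changes between tissues within a cell type are given relative to the median gene, whose shift was 0.365 in Treg and 0.333 in Tconv. Where a group lay wholly under 65.9 units, values under that level were raised to it and the fold is given as a lower bound. Replicates are pools of mice, so the p-values measure the spread between pools. Unless the replicate block is named, they come from a fit that does not use the pairing of replicate numbers.

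Of the 12821 genes tested, 4.85% had a called interaction: 277 (2.16%) were higher in fat and 345 (2.69%) were lower. The interaction was at least 1 log2 unit in size for 522 of the 622, and at least 2 for 179. The Treg effect itself was called in fat for 1476 genes (11.5%) and in lymph node for 554 genes (4.32%), and the SD of the Treg effect over genes was 0.55 in fat and 0.39 in lymph node. Most genes that separated Treg from Tconv did so without a called difference between the tissues: an interaction was called for 33.3% of the fat calls and 33.4% of the lymph node calls. Of the 554 lymph node calls, 247 were called in the same direction in fat, 31 in the opposite direction, and 276 were not called in fat. The replicate numbers paired the samples, and with the number as a block 1416 interactions were called, 599 higher and 817 lower.

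By pattern, 421 of the 622 were called in fat and not in lymph node, 220 with a higher and 201 with a lower interaction. Another 29 were called in both tissues in the same direction with the larger effect in fat. A lymph node effect that was not called in fat accounted for 115 genes, 92 of them with a lower interaction and 23 with a higher. A further 10 had the same direction with a smaller effect in fat. The direction reversed in 31 genes, 24 of them from higher in lymph node Treg to lower in fat Treg. The last 16 were called in neither tissue alone. With the replicate block the fat-only pattern held 901 genes, the lost lymph node effect 235 and the reversal 90. The reversal count was 19 without lymph node Treg replicate 1 and 20 without lymph node Treg replicate 2.

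**Figure D1:**
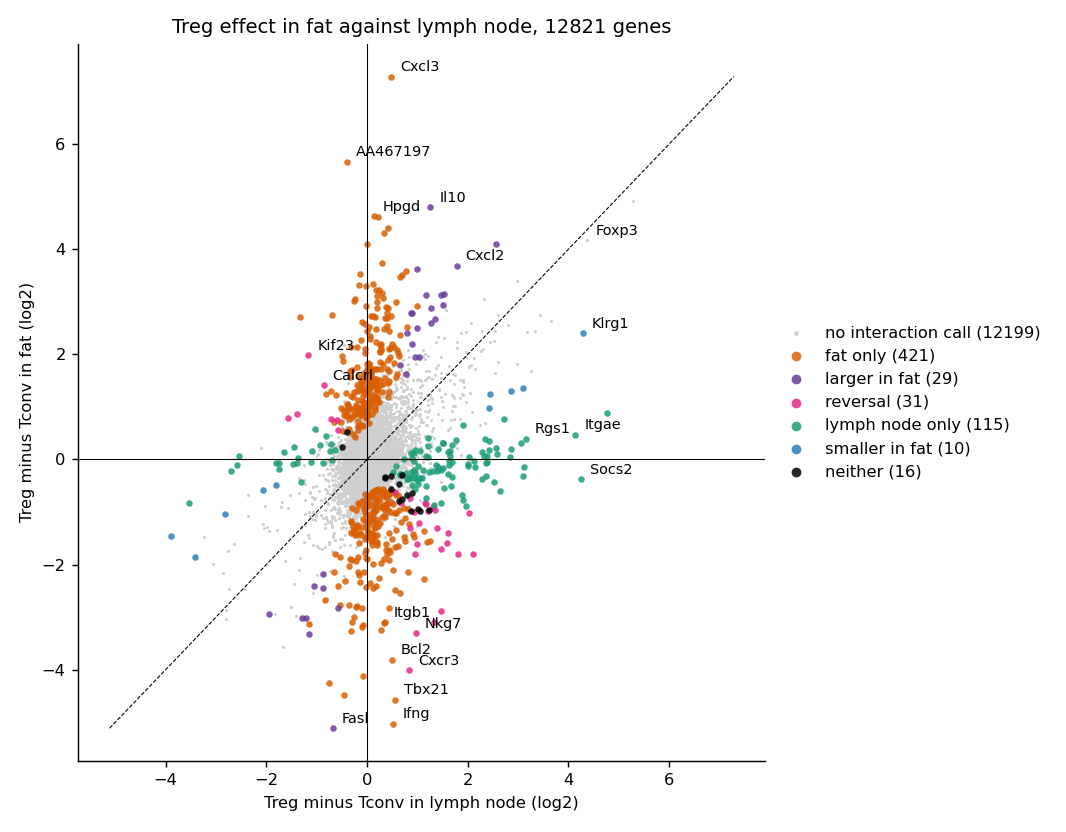
Each point is 1 of 12821 genes, with the Treg minus Tconv difference in lymph node on the x axis and in fat on the y axis, both in log2. Colours give the pattern of the 622 called genes and grey the rest. The 421 fat-only genes spread along the vertical axis, the 115 genes whose lymph node effect was not called in fat lie along the horizontal axis, and Foxp3 lies near the dashed line of equal effects.

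To find which cells carried each interaction, fat was compared with lymph node within Treg and within Tconv. A gain is a signal higher in fat than in lymph node. These contrasts called 4489 genes (35%) in Treg and 2634 (20.5%) in Tconv. Among the 622 interactions, 166 were gains in fat Treg and 169 were losses in fat Treg, each with no called change in Tconv. Gains in fat Tconv alone accounted for 77 and losses in fat Tconv alone for 21. Opposite called changes accounted for 46, in 38 of which Tconv rose and Treg fell. In 125 genes both cell types changed the same way and Treg changed more, and in 16 Tconv changed more. Neither contrast was called in 2. In all, 460 (74%) lay on the Treg side and 114 (18.3%) on the Tconv side. With the replicate block these counts were 973 and 260. The lost lymph node effects were more mixed: 72 of 115 lay on the Treg side and 33 on the Tconv side.

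**Figure D2:**
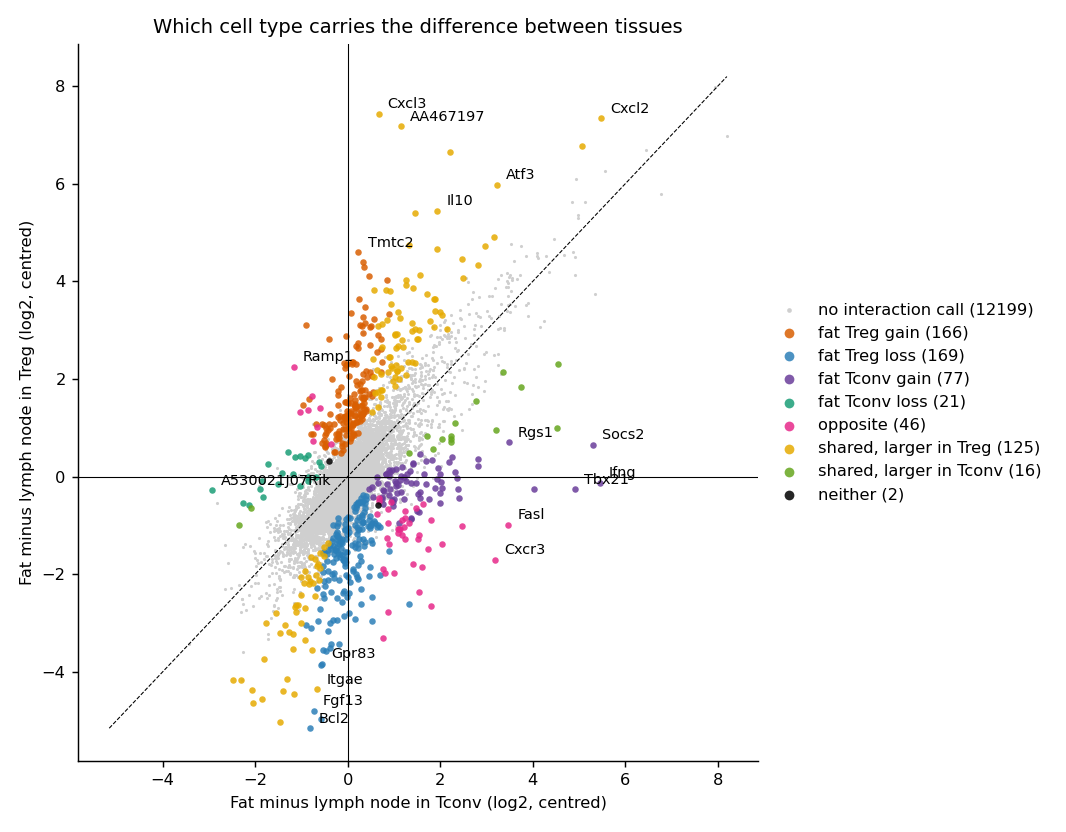
The x axis gives the fat minus lymph node difference in Tconv and the y axis that in Treg, in log2 after the median gene's shift was subtracted. Points far from the dashed diagonal carry the interaction, and colours show the class of the 622 called genes. Fat Treg gains (166) and losses (169) lie along the vertical axis, and the 77 fat Tconv gains, including Ifng, Tbx21 and Socs2, lie along the horizontal axis.

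In the 2 largest interactions both cell types were higher in fat than in lymph node, and Treg by far more. Cxcl3, a chemokine that attracts neutrophils, had 2100, 1940 and 1730 units in the 3 fat Treg arrays and 10.3, 18.8 and 9.6 in fat Tconv. Its lymph node values were 8.63, 8.25 and 8.82 in Treg and 5.94, 6.57 and 5.96 in Tconv. The fat Treg arrays were far above the other 9, all of which lay under the filter level. The Treg effect of Cxcl3 in fat was therefore at least 29.1-fold, and no fold is given for lymph node (interaction 6.81 ± 0.26 SE, limma adjusted p = 6.15e-11). With all values below the median signal raised to it, its interaction was 4.86 (limma adjusted p = 2.54e-13). AA467197, a small mitochondrial protein gene, had 1630, 2820 and 3130 units in fat Treg against 35.4, 59 and 52.7 in fat Tconv, and 11.2 to 18.3 in lymph node (interaction 6.06 ± 0.37, limma adjusted p = 2.71e-08). Macrophage marker signal was also higher in fat Treg than in fat Tconv of the same number, and its part in these results was not tested. The macrophage sum was lowest in fat Treg replicate 2, where Cxcl3 was at 1940 and AA467197 at 2820, neither the lowest of its group. Ccr1, described below, did have its lowest fat Treg value there, at 482. The part of other cells was not tested for any of these genes.

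The nuclear receptor Pparg and the cytokine Il10 were also highest in fat Treg. Pparg had 657, 967 and 950 units in fat Treg and 55.8, 87.5 and 126 in fat Tconv, and the 6 lymph node arrays lay between 21.4 and 30.2. Fat Treg and fat Tconv did not overlap, and both lay above lymph node. Its Treg effect was 9.92-fold in fat, and in lymph node both groups were under the filter level (interaction 3.46 ± 0.34, limma adjusted p = 4.8e-06). Il10 had 5560, 6540 and 6250 units in fat Treg, 193, 259 and 210 in fat Tconv, 82.9, 111 and 139 in lymph node Treg and 41.1, 47.5 and 47.9 in lymph node Tconv. Here the Treg effect was called in both tissues, at 27.9-fold in fat and at least 1.65-fold in lymph node (limma adjusted p = 5.26e-08 for the interaction). Gata3, the type 2 helper regulator, had 2610, 1830 and 2370 units in fat Treg against 255, 399 and 335 in fat Tconv and 128 to 233 in lymph node (interaction 2.39 ± 0.31, limma adjusted p = 0.000106). Over all tested genes 4.85% were called, 2.16% higher and 2.69% lower, and every list count from here on is to be read against that share. All lists were chosen with earlier results of these data known. Type 2 helper genes as a list had a median of 0.25 against 0.03 for all tested genes. Called members were 4 of 11, all higher, namely Il10, Epas1, Gata3 and Il5. Il5 was the least stable of these: its adjusted p by limma rose to 0.0564, 0.0601, 0.0614 and 0.0561 without fat Treg replicate 3, fat Tconv replicate 2, lymph node Treg replicate 1 and lymph node Tconv replicate 3, at interactions of 1.58, 1.51, 1.52 and 1.58. Epas1 is described below with the lost lymph node effects, since its fat groups overlapped.

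Hpgd, which inactivates prostaglandin E2, had 1750, 2870 and 2250 units in fat Treg and 158, 59.1 and 80 in fat Tconv, against 12.5 to 20.5 in lymph node. All fat Treg arrays exceeded all others. Its interaction was 4.49 ± 0.42 (limma adjusted p = 2.79e-06), and a second, dimmer probe set gave 1.70. Ccr1, a chemokine receptor, had 713, 482 and 793 units in fat Treg and 14.8 to 38.3 in the other 9 arrays (interaction 3.97 ± 0.32, limma adjusted p = 6.15e-07). Tmtc2, a membrane protein of the endoplasmic reticulum, had 2700, 3070 and 3700 in fat Treg against 93 to 169 in fat Tconv and 76.9 to 128 in lymph node. The other large gains included Egln3, an oxygen-dependent prolyl hydroxylase (2070 to 2590 units in fat Treg, 175 to 234 in fat Tconv, 79.8 to 166 in lymph node), and the carboxypeptidase Cpm. The cadherin Cdh17, the protease Bace2 and the vesicle protein Dmxl2 were likewise higher, with interactions of 3.43, 3.30 and 3.98. Tox2, a transcription factor of the Tox family, varied more: fat Treg held 4140 to 9770 units, and lymph node Tconv ran from 424 to 3270 (interaction 4.04 ± 0.92, limma adjusted p = 0.0132).

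A list of genes known from adipose Treg had 13 higher and 1 lower among 27 tested members, with a median of 0.73. That list comes from literature that includes these arrays, so its direction is not independent evidence. Cxcl3, Hpgd, Ccr1, Il10, Pparg, Gata3, Dgat2, Cxcl2 and Itgav led it, and Klrg1 was the lower member. Among 28 genes of lipid uptake, storage and oxidation, 4 were higher and 1 was lower, against 2.16% and 2.69% of all tested genes. The list median was 0.14. Of the 13, Il10ra lost its call without fat Treg 2 or 3, lymph node Treg 2 or 3, or lymph node Tconv 3, and Ccr3 without fat Treg 3, fat Tconv 3, lymph node Treg 2 or lymph node Tconv 2. The higher lipid genes were Pparg, the triglyceride synthesis enzymes Dgat2 and Dgat1, and the lipid droplet coat gene Plin2. Plin2 had 3040, 3120 and 3560 units in fat Treg, 542 to 1000 in fat Tconv and 148 to 205 in lymph node (interaction 1.82 ± 0.26, limma adjusted p = 0.000269). Dgat2 had 1680, 523 and 800 in fat Treg and 39.8 to 141 elsewhere. The adipocyte marker sums of the same fat Treg arrays were 7040, 2990 and 5190, and the part of adipocytes was not tested. Dgat1 passed the threshold at 0.0237, and its limma adjusted p rose to 0.0547, 0.0536, 0.0561, 0.0505 and 0.062 without fat Treg replicates 1 or 3, lymph node Treg replicate 2 and lymph node Tconv replicates 1 or 2, at interactions of 1.54, 1.60, 1.60, 1.58 and 1.55. The lower member, the desaturase Scd2 (-1.22, 0.0358), lost its call without fat Treg replicates 2 or 3, fat Tconv 2 or 3, lymph node Treg 1 or lymph node Tconv 2 or 3, with adjusted p of 0.0511 to 0.11 by limma. Fabp4, a fatty acid carrier abundant in adipocytes, had an interaction of 0.08 at fat means of 2500 and 2250, and the fatty acid transporter Cd36 one of 0.70; neither was called. None of 13 sterol synthesis genes was called by limma, and 1 had an unadjusted p under 0.05; their interactions ran from -0.59 to 1.04, and 1 was called higher with the replicate block.

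**Figure D3:**
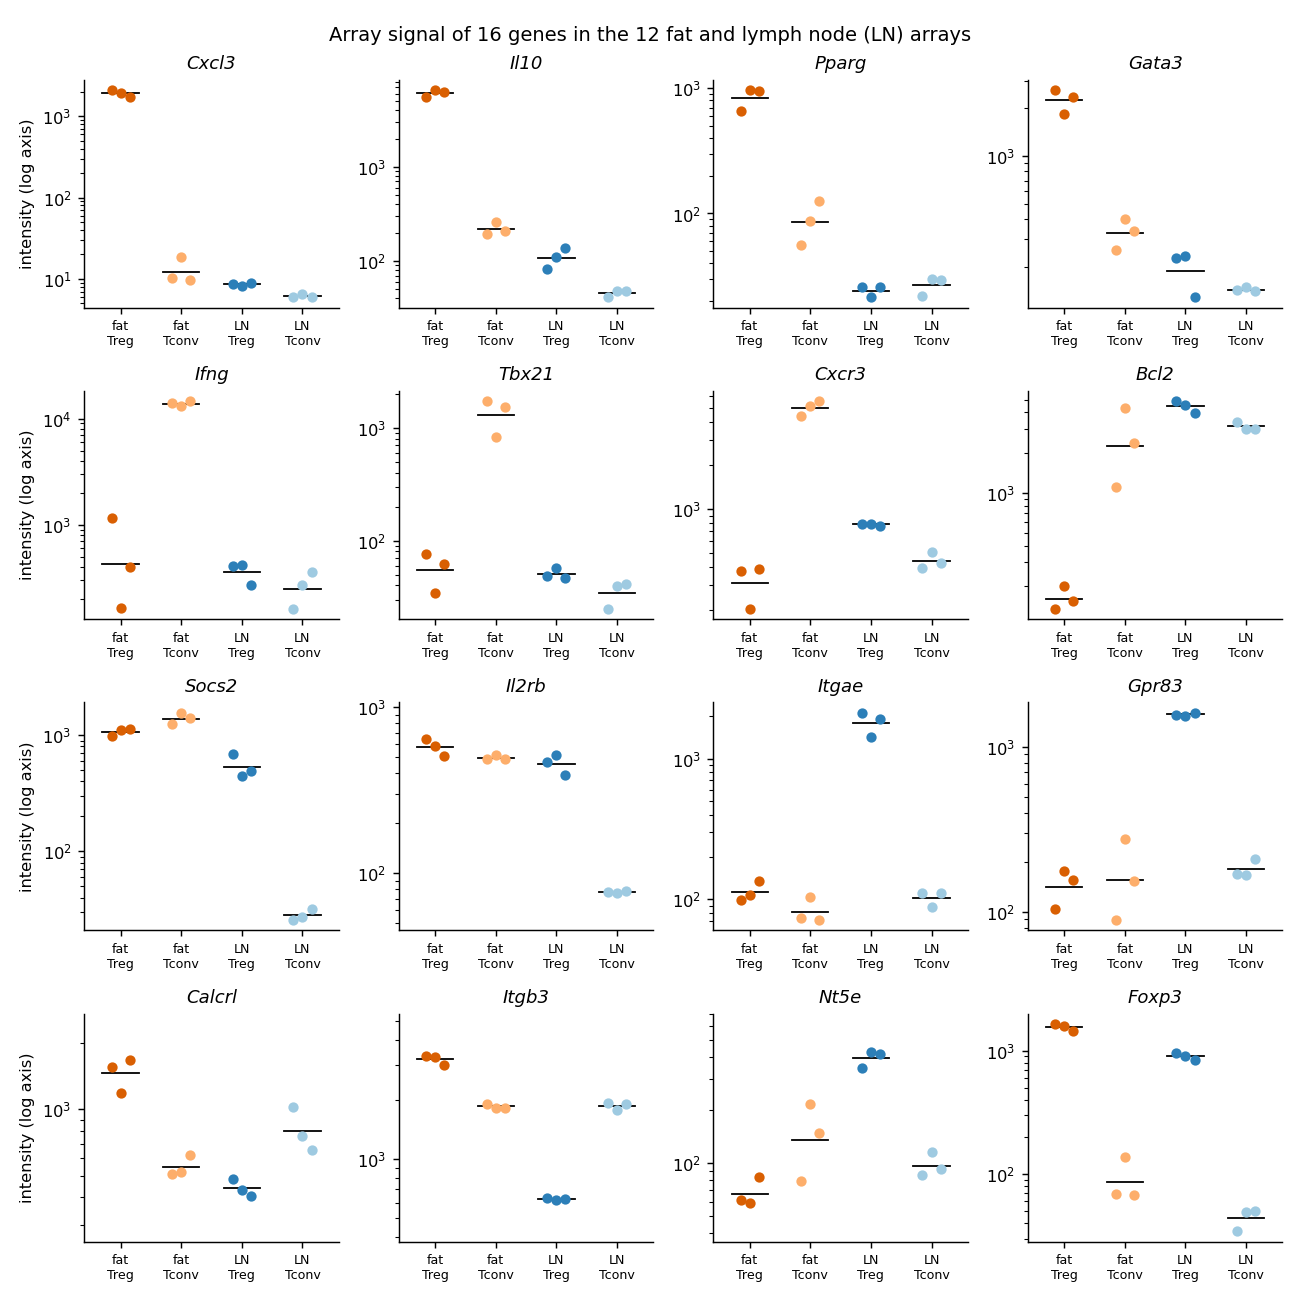
Signal of 16 genes in the 12 arrays on log axes, with a point per array and a line at the geometric mean of each group. In the upper row 1 group, fat Treg, lies above the other 3; for Ifng, Tbx21 and Cxcr3 it is fat Tconv. Socs2 and Il2rb are low in lymph node Tconv, and Itgae and Gpr83 are high in lymph node Treg.

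Chemokine genes went both ways: of 30 chemokines and receptors tested, 7 had a higher and 3 a lower interaction, with 5 lower under the replicate block. The 3 lower ones were Ccl5, Ccr6 and Cxcr3. Cxcl2, a neutrophil chemokine like Cxcl3, had 13400, 11400 and 11600 units in fat Treg and 1500, 811 and 676 in fat Tconv, against 50.6 to 66.7 in lymph node Treg and 15.7 to 18.1 in lymph node Tconv. Both fat groups exceeded both lymph node groups, and Treg exceeded Tconv in each tissue, 12.9-fold in fat (interaction 1.91 ± 0.31, limma adjusted p = 0.000834). Lymph node Tconv was wholly under the filter level of 65.9 units, and lymph node Treg reached at most 66.7. The lower bound of the lymph node fold was therefore 1, so that Treg effect rests on signals near or under the filter. With all values below the median signal raised to it, the Cxcl2 interaction was 3.68 (limma adjusted p = 6.04e-07). Cxcl10, a ligand of the receptor Cxcr3, had 1580, 1170 and 1020 units in fat Treg, 128, 112 and 201 in fat Tconv and 43.6 to 81.4 in lymph node (interaction 2.92 ± 0.35, limma adjusted p = 4.64e-05). Cxcr3 itself, on the cells that answer Cxcl10, was on the other side, high in fat Tconv. Ccrl2, a chemerin-binding receptor, was also higher, with a fat Treg mean of 2460 ± 559 units (SD, n = 3). In fat the macrophage marker sums given above were also higher in Treg than in Tconv of the same number, and their part was not tested.

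The upstream sequences of 3 of these chemokine genes are shown because they share a short NF-kB type motif. NF-kB is a family of transcription factors that activate inflammatory genes. The sequences are the 250 bases before the annotated start, from the RefSeq promoter table of build GRCm38.p6, read 5′ to 3′ along the gene's strand, with each match to GGANTTTCC or its reverse complement in capitals. Cxcl2 lies on the plus strand (chr5:90903649-90903898), as does Cxcl3 (chr5:90785851-90786100), and Cxcl10 on the minus strand (chr5:92348890-92349139).

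Cxcl2: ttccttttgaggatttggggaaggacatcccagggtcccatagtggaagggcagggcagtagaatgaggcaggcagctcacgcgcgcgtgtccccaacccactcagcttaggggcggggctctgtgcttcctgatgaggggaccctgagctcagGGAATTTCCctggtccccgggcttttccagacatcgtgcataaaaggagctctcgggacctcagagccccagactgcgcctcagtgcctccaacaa

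Cxcl3: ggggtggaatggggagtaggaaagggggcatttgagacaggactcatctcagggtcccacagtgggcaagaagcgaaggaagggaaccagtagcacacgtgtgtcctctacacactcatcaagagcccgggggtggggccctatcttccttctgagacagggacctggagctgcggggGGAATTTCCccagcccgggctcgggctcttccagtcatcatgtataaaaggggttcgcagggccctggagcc

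Cxcl10: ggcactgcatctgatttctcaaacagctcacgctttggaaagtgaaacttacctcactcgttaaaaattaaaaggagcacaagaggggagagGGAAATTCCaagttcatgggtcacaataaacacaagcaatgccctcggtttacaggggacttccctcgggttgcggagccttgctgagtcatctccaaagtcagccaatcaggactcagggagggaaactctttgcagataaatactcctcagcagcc

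The match spans bases 96 to 88 before the start in Cxcl2, 72 to 64 in Cxcl3 and 158 to 150 in Cxcl10, where it is the reverse complement. Of 10341 tested genes with a promoter of 300 bases in that table, 1.33% held this spelling on either strand. It was found in 10 of 214 promoters of higher interactions and in 2 of 275 of lower ones. A shorter spelling, GGANTTCC, was in 5.83% of all promoters, in 23 of the 214 and in 11 of the 275. The longer GGGANTTCC was in 2.28% of all, in 9 and in 1; matches to the 3 spellings can overlap, and all were chosen after the expression values were known. The other motifs searched, on both strands, were the T-box core TCACACC, the GATA site AGATAA and the AP-1 site TGANTCA. They were in 3.52%, 6.83% and 5.61% of all promoters, in 12, 18 and 14 of the 214, in 11, 12 and 16 of the 275, and in 3, 1 and 3 of the 58 promoters of fat Tconv gains. By carrier, GGANTTTCC was in 2 of 131 promoters of fat Treg gains and in 7 of 99 of genes that changed in both cell types and more in Treg, which include Cxcl2, Cxcl3 and Cxcl10. A match is a description of the letters in this window.

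NF-kB and TNF family genes themselves had 6 higher and 3 lower interactions among 27 tested, with a median of 0.25. Over all tested genes the shares were 2.16% and 2.69%. Nfkbie, an NF-kB inhibitor, had 2030, 1660 and 1400 units in fat Treg, 182 to 228 in fat Tconv, and 93.7 to 164 in lymph node (interaction 2.42 ± 0.27, limma adjusted p = 2.06e-05). Bcl3, a nuclear NF-kB cofactor, and Birc3, a survival protein that acts downstream of TNF receptors, had interactions of 1.67 ± 0.33 and 1.31 ± 0.29. Of the other 3 higher members, Nfkbib lost its call without any single array but fat Tconv 1 and lymph node Treg 1, and Rel without lymph node Tconv 2 or 3 (limma adjusted p = 0.0502 and 0.0501). The last, Tnfrsf9, lost it without fat Treg 3, fat Tconv 2, any lymph node Treg array, or lymph node Tconv 2 or 3. On the lower side were 3 TNF family ligands. Tnfsf14 (LIGHT) was a gain of fat Tconv, with 217, 265 and 362 units against 67.7 to 130 in the other 9 arrays. Lta, lymphotoxin alpha, had 307, 197 and 174 units in lymph node Treg and 59.3 to 123 in all others. Tnfsf11 (RANKL), the last, had an interaction of -1.38. Its call was lost without fat Treg replicate 1, fat Tconv 2 or 3, lymph node Treg 1 or 3, or lymph node Tconv 1 or 2, with adjusted p of 0.0541 to 0.0797 by limma.

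The 2 most negative interactions were gains of fat Tconv in type 1 helper genes. Ifng had 14000, 13000 and 14500 units in fat Tconv and 1160, 166 and 396 in fat Treg, against 407, 422 and 270 in lymph node Treg and 162, 272 and 359 in lymph node Tconv. Fat Tconv lay far above the other 3 groups, and fat Treg overlapped the lymph node arrays. The Treg effect was 32.5-fold lower in fat and 1.43-fold higher in lymph node, the latter not called (interaction -5.54 ± 0.68, limma adjusted p = 5.31e-05). Fat Treg replicate 1 was the highest of its group, and without it the interaction was -6.27; without fat Treg replicate 2, the lowest, it was -4.86. Tbx21 had 1710, 835 and 1520 units in fat Tconv and 75.5, 34.6 and 61.8 in fat Treg, with 24.9 to 56.8 in lymph node (interaction -5.13 ± 0.40, limma adjusted p = 3.59e-07). Within Treg, fat and lymph node differed by -0.25 for Tbx21 and -0.12 for Ifng, and neither was called. In bulk RNA of sorted cells, more cells of a type and more RNA per cell cannot be told apart.

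Other effector genes followed with fat Tconv as the high group. Fasl, the death ligand, had 2610, 3020 and 2680 units in fat Tconv and 66.4 to 96.5 in fat Treg, with 120 to 126 in lymph node Treg and 168 to 220 in lymph node Tconv. Treg were the lower cells in both tissues, 34.6-fold in fat and 1.61-fold in lymph node (limma adjusted p = 1.25e-08 for the interaction). Ccl5, a chemokine of effector T cells, had 10700, 9850 and 11100 units in fat Tconv, 408 to 823 in fat Treg, and 152 to 408 in lymph node. The granule protein Nkg7 had 4610, 4660 and 5730 units in fat Tconv against 213 to 565 in the other 9 arrays. Its Treg effect was 1.95-fold higher in lymph node and 9.87-fold lower in fat, a reversal (limma adjusted p = 7.86e-08). Eomes, a T-box factor related to T-bet, was carried by fat Tconv at 526, 1130 and 833 units, and the granzyme Gzmk at 382, 862 and 730, against at most 273 and 133 elsewhere. Of 19 type 1 helper genes tested, 7 were lower and 1 higher, against 2.69% and 2.16% of all tested genes, and the median was -0.36. The higher one, the regulator Id2 (2.03), lost its call without fat Treg replicates 1 or 3, fat Tconv 1 or 3, lymph node Treg 2 or 3, or lymph node Tconv 1 or 3, with adjusted p of 0.0635 to 0.104 by limma. Further Id2 probe sets gave 2.12 and 2.24, both called, and the mean of its probe sets gave 2.13 (limma adjusted p = 0.000828). Of the lower ones, the receptor chain Il18r1 lost its call without fat Treg 2 or 3, fat Tconv 1 or 2, lymph node Treg 3 or any lymph node Tconv array. Il12rb1, Il12rb2, Stat4 and Runx3, further genes of type 1 differentiation, had interactions of 0.09, 0.15, 0.09 and -0.14 and were not called. Of 12 cytotoxic and NK cell genes, 4 were lower (Fasl, Nkg7, Ctsw and Gzmk), against 2.69% of all tested genes. Gzmb, Gzma and Prf1 had interactions of -0.25, -0.33 and 0.32.

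Cxcr3, the receptor that guides type 1 cells, was the largest reversal. It had 4340, 5130 and 5510 units in fat Tconv and 374, 205 and 383 in fat Treg, but 791, 789 and 759 in lymph node Treg and 390, 502 and 422 in lymph node Tconv. The groups did not overlap within either tissue, and their order was opposite. Treg were 16.1-fold lower in fat and 1.79-fold higher in lymph node than Tconv (interaction -4.85 ± 0.30, limma adjusted p = 3.58e-08). Both cell types carried it: relative to the median gene, fat minus lymph node was 3.18 in Tconv and -1.70 in Treg. Itgb1, the beta 1 integrin chain that binds matrix, was carried in the same way, with 2240 to 3550 units in fat Tconv, 276 to 391 in fat Treg and 393 to 553 in lymph node. Cblb, a ubiquitin ligase that damps T cell receptor signals, had 5420, 7450 and 6580 units in fat Tconv and 1330 to 2900 in the other 9 arrays, although 2 further Cblb probe sets gave -0.59 and -0.41 and were not called.

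Losses in fat Treg formed the largest class on the lower side. Bcl2, the survival gene, had 135, 200 and 153 units in fat Treg and 1110, 4310 and 2360 in fat Tconv, against 4840, 4530 and 3990 in lymph node Treg and 3410, 3030 and 3020 in lymph node Tconv. All 3 fat Treg arrays were below the other 9, and fat Tconv overlapped lymph node Tconv. The Treg effect was 14-fold lower in fat and 1.41-fold higher in lymph node, the latter not called (interaction -4.30 ± 0.47, limma adjusted p = 1.65e-05). Its 4 further probe sets gave -0.96, -2.10, -2.72 and -3.84, all called. Bach2, a repressor that keeps T cells from effector differentiation, had 125, 78.9 and 105 units in fat Treg, 617, 1380 and 1100 in fat Tconv, and 1380 to 2180 in lymph node. It fell in both cell types of fat, by 4.38 in Treg and by 1.41 in Tconv, relative to the median gene. Btla, an inhibitory receptor, had 386 to 489 units in fat Treg, 3380 to 3630 in fat Tconv and 3970 to 4830 in lymph node. Fgf13 had 22.9 to 61.6 units in fat Treg against 613 to 1120 in the other 9 arrays. Btbd11 changed in opposite ways, with 28.8 to 66.8 units in fat Treg and 769, 1190 and 914 in fat Tconv against 248 to 468 in lymph node.

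Several of the lost genes act in T cell recirculation and quiescence. Of 22 naive and lymphoid homing genes, 5 were lower and 3 higher, with a median of -0.35; under the replicate block 7 were lower and 5 higher. Klf3 and S1pr1, the latter the receptor for exit from lymph nodes, fell in fat Treg: S1pr1 had 284, 257 and 274 units there and 525 to 1030 in the other 9 arrays (interaction -1.17 ± 0.26, limma adjusted p = 0.012). Bach2 and Bcl2 were lower as given above, and Pde3b and Ets2 were among the higher members. The other members called were less stable: Satb1 (lower) lost its call without any single array but fat Treg 1 or 2 and lymph node Treg 3, and Ccr9 (higher) without any but fat Treg 1 or 3 and fat Tconv 2. Ccr7 and Klf2, central homing genes, had interactions of -1.04 and -0.60, and neither was called. Of 13 follicular helper and type 17 genes, 5 were lower (Btla, Slamf6, Sh2d1a, Ccr6 and Ahr) and 1 higher, and the median of -1.27 was the lowest of the 30 lists. Slamf6, a receptor of the SLAM family, had 201 to 239 units in fat Treg and 968 to 2000 in the other 9 arrays, and its adaptor Sh2d1a had 15 to 22.8 against 101 to 239. With all values below the median signal raised to it, Sh2d1a gave -1.20 and was not called. The higher member was Pdcd1 (PD-1), with 680, 502 and 1080 units in fat Treg and 42.8 to 150 elsewhere (interaction 2.52 ± 0.48, limma adjusted p = 0.00336).

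T cell receptor signalling genes had 6 lower and no higher interactions among 27 tested, with a median of -0.36. Over all tested genes 2.69% were lower and 2.16% higher. Trat1, an adaptor of the receptor complex, had 137, 114 and 125 units in fat Treg and 341 to 740 in the other 9 arrays (interaction -2.56 ± 0.25, limma adjusted p = 4.8e-06). Prkcq, the kinase at the T cell contact site, had 1130 to 1570 units in fat Treg against 2300 to 3970. Of the 6, Nfatc2 lost its call without fat Treg 1 or 3, fat Tconv 2, lymph node Treg 1 or 2, or lymph node Tconv 2 or 3. Ptpn22 lost its call without fat Treg 2 or 3, fat Tconv 3, lymph node Treg 1 or 3, or lymph node Tconv 2 or 3. The receptor chains Cd3d, Cd3e, Cd3g and Cd247 had interactions of 0.10, -0.03, 0.10 and 0.31 and were not called. Bcl2l11 (Bim), the death factor that Bcl2 restrains, was lower as well: fat Treg had 1960 to 2160 units and fat Tconv 4750 to 7370, with 2030 to 3720 in lymph node (interaction -1.63 ± 0.38, limma adjusted p = 0.0146).

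Among genes that define Treg in lymph node, some had no called interaction and others had a lower Treg effect in fat. Foxp3 had 1640, 1580 and 1450 units in fat Treg and 68.3, 138 and 67.9 in fat Tconv, against 955, 905 and 844 in lymph node Treg and 34.3, 49.1 and 49.9 in lymph node Tconv. The Treg effect was 18.1-fold in fat and at least 13.7-fold in lymph node, and its interaction of -0.19 ± 0.39 was not called (limma adjusted p = 0.903, and 0.723 with the replicate block). Over the alternatives run, the Foxp3 interaction ranged from -0.36 to 0.40. Ctla4, the inhibitory receptor, had a Treg effect of 5.45-fold in fat and 10.1-fold in lymph node. Its interaction of -0.90 ± 0.46 was not called (limma adjusted p = 0.406, and 0.096 with the replicate block). Ikzf2, Ikzf4, Tnfrsf18 and Tnfrsf4, further Treg genes, had -0.20, -0.10, -0.11 and 0.15. Of 27 Treg identity genes tested, 10 were lower and 1 higher, and the list median was -0.73. The 10 were Socs2, Itgae, Gpr83, Nt5e, Nrp1, Il2rb, Entpd1, Klrg1, Cd83 and Izumo1r. Of these, Izumo1r (-1.53) lost its call without lymph node Treg replicates 1 or 2 (limma adjusted p = 0.0533 and 0.0551). Cd83 (-1.73) lost its call without fat Treg 2, fat Tconv 2 or 3, lymph node Treg 1 or 3, or lymph node Tconv 1 or 2, and the higher member, Tnfrsf9 (1.42), without fat Treg 3, fat Tconv 2, any lymph node Treg array, or lymph node Tconv 2 or 3.

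Not all of the lower Treg identity genes lost their effect in fat. Cd83 was still 2.58-fold higher in Treg in fat, against 8.52-fold in lymph node. Klrg1 kept a smaller effect and Nt5e reversed, as given below. The effects that were lost came from different groups. Itgae, the CD103 integrin chain that binds epithelial E-cadherin, had 2120, 1430 and 1910 units in lymph node Treg, and 98.8, 107 and 135 in fat Treg, 73.3, 103 and 71.2 in fat Tconv and 110, 87.6 and 110 in lymph node Tconv. The lymph node Treg arrays were high, and the other 9 overlapped. Its Treg effect was 17.6-fold in lymph node and 1.39-fold in fat, the latter not called (interaction -3.66 ± 0.31, limma adjusted p = 1.13e-06). Gpr83, a neuropeptide receptor of Treg, had 1570, 1540 and 1610 units in lymph node Treg and 89.3 to 277 elsewhere. Ccr6, a homing receptor for mucosa, had 1900, 1310 and 1700 there and 177 to 384 elsewhere. In these genes fat Treg lacked the signal that lymph node Treg had.

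For Socs2, Il2rb and Rgs1 it was fat Tconv that closed the gap. Socs2, a feedback inhibitor of cytokine signals, had 25.6, 27.2 and 31.7 units in lymph node Tconv and 684, 444 and 493 in lymph node Treg, but 1240, 1560 and 1400 in fat Tconv and 988, 1120 and 1130 in fat Treg. Lymph node Tconv was the low group, and in fat the Tconv arrays exceeded the Treg arrays. Since lymph node Tconv was under the filter level, the Treg effect was at least 8.06-fold in lymph node, and it was 1.29-fold lower in fat, the latter not called (interaction -4.61 ± 0.36, limma adjusted p = 3.59e-07). With all values below the median signal raised to it the Socs2 interaction was -3.38, and as the mean of its probe sets it was -2.08, both called. Of the 4 further Socs2 probe sets, 2 were called, at -4.74 and -2.09, and the others gave -0.58 and -0.37. Il2rb, the receptor chain shared by IL-2 and IL-15, had 76.8, 75.6 and 78.6 units in lymph node Tconv and 389 to 642 in the other 9 arrays (interaction -2.35 ± 0.22, limma adjusted p = 2.9e-06), and a second, dimmer probe set gave -0.59, which was not called. Rgs1, a brake on chemokine signals typical of resident T cells, had 71.5, 106 and 141 in lymph node Tconv, 727 to 1160 in lymph node Treg, 1440 to 1450 in fat Tconv and 1780 to 2010 in fat Treg. Entpd1 (CD39), which breaks down extracellular ATP, had 19.8 to 22.5 units in lymph node Tconv and 84.5 to 156 in the other 9 arrays. With all values below the median signal raised to it, its interaction was -0.32 and not called.

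Nrp1 and Ahr were carried by both cell types. Nrp1, a co-receptor used as a Treg marker, had 1970, 3090 and 3760 units in lymph node Treg and 201, 495 and 592 in lymph node Tconv, but 1830 to 2130 in fat Treg and 1300 to 2110 in fat Tconv, where the groups overlapped. Its Treg effect was 7.3-fold in lymph node and 1.16-fold in fat, the latter not called (interaction -2.66 ± 0.44, limma adjusted p = 0.000931). The aryl hydrocarbon receptor Ahr had 1110 to 1660 units in lymph node Treg, 106 to 209 in lymph node Tconv, 414 to 551 in fat Treg and 450 to 754 in fat Tconv. Klrg1, an inhibitory receptor of differentiated cells, kept its direction with a smaller effect: 10900 to 11100 units in fat Treg, 1720 to 2490 in fat Tconv, 1870 to 3220 in lymph node Treg and 105 to 139 in lymph node Tconv. The Treg effect was 19.5-fold in lymph node and 5.3-fold in fat, and fat Treg had the highest signal of the 4 groups.

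On the higher side, a lost lymph node effect meant that a gene lower in lymph node Treg was no longer lower in fat Treg. Epas1, a hypoxia-inducible factor, had 60.3, 88.5 and 96.3 units in lymph node Treg and 658, 453 and 336 in lymph node Tconv, against 4050, 1100 and 1350 in fat Treg and 1690, 1570 and 1980 in fat Tconv. The fat groups overlapped and both exceeded lymph node (interaction 2.60 ± 0.55, limma adjusted p = 0.0078). Fat Treg replicate 1 had the highest Epas1, and it also had the highest stromal and adipocyte sums, 17900 and 7040. The part of other cells in this result was not tested. Pde3b, a phosphodiesterase that degrades cyclic AMP, was lower in Treg of both tissues, 14.9-fold in lymph node and 2.74-fold in fat (interaction 2.45 ± 0.34, limma adjusted p = 0.000188).

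Reversals toward fat Treg were fewer, 7 of 31. Calcrl and Ramp1 encode the 2 chains of the receptor for the neuropeptide CGRP. Calcrl had 1560, 1190 and 1680 units in fat Treg and 511, 523 and 622 in fat Tconv, but 484, 430 and 406 in lymph node Treg and 1020, 758 and 658 in lymph node Tconv. Treg were above Tconv in every fat array and below in every lymph node array (2.66-fold higher and 1.82-fold lower, interaction 2.27 ± 0.32, limma adjusted p = 0.000207). Ramp1 had 852, 1220 and 1450 units in fat Treg and 96.8 to 264 in fat Tconv, with 144 to 218 in lymph node Treg and 253 to 398 in lymph node Tconv. Its lymph node effect of -0.70 was not called, so it counts as fat only (interaction 3.45 ± 0.48, limma adjusted p = 0.000178). Further, dimmer probe sets gave 0.24 and 0 for Calcrl and 0.40 and 0.24 for Ramp1, none of them called.

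Itgb3 and Itgav, the chains of the vitronectin receptor, were both higher. Itgb3 had 3340, 3300 and 3010 units in fat Treg, 1900, 1820 and 1820 in fat Tconv, 632, 619 and 624 in lymph node Treg and 1920, 1770 and 1900 in lymph node Tconv. The 2 Tconv groups overlapped, while Treg were above them in fat and below them in lymph node (interaction 2.37 ± 0.29, limma adjusted p = 4.22e-05). A second, dimmer Itgb3 probe set gave 0.41 and was not called. Itgav had 9040, 7390 and 7890 units in fat Treg, 1040 to 1270 in fat Tconv, 1170 to 1180 in lymph node Treg and 598 to 698 in lymph node Tconv. Its Treg effect grew from 1.84-fold to 6.9-fold. Kif23, a kinesin of cell division, and the chromatin remodeller Chd7 reversed as well, with fat Treg gains of 3.48 and 2.35 over lymph node Treg relative to the median gene. The lymph node Treg arrays of Kif23 were under the filter level. A second Chd7 probe set gave 0.17, not called, and was lower in Treg of both tissues.

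Reversals away from Treg in fat numbered 24. P2rx7, the receptor through which extracellular ATP kills or activates T cells, had 419, 521 and 532 units in lymph node Treg and 134, 238 and 230 in lymph node Tconv, but 111, 99 and 91.3 in fat Treg and 630, 1080 and 919 in fat Tconv. No groups overlapped within a tissue (interaction -4.43 ± 0.40, limma adjusted p = 1.74e-06). Of 2 further P2rx7 probe sets, 1 was called, at -6.01, and the other gave -0.07. Nt5e (CD73), which makes adenosine from AMP, had 348, 426 and 417 units in lymph node Treg and 59.3 to 83.1 in fat Treg, with 85.9 to 116 in lymph node Tconv and 78.8 to 216 in fat Tconv. Fat Treg and fat Tconv overlapped by their lowest and highest arrays, and the Treg effect there was 2.02-fold lower (limma adjusted p = 0.027). Its 2 further, dimmer probe sets gave 0.07 and 0.16, neither called. The ubiquitin ligase gene Marchf3 had 1290 to 1560 units in lymph node Treg, 245 to 394 in lymph node Tconv, 248 to 694 in fat Treg and 1160 to 1360 in fat Tconv. Hk2, the inducible hexokinase, reversed with smaller effects, 2.26-fold higher in lymph node and 1.81-fold lower in fat, and was the single called gene of 13 glycolysis genes (median -0.28). Bank1, a signalling adaptor best known in B cells, had 356 to 473 units in lymph node Treg, 102 to 139 in fat Treg and 136 to 258 in the Tconv groups. Of the other 7 tested B cell markers none was called, although 3 of all 8 had an unadjusted p under 0.05 by limma. Interactions were above 0 for 4 of the 8. Cd79b averaged 179 units in lymph node Treg and 84.8, 81.7 and 88.7 in fat Treg, fat Tconv and lymph node Tconv. Sums of 10 B cell markers, Bank1 included, were 4010 to 4150 in lymph node Treg and at most 3720 in lymph node Tconv. In fat they were 3180 to 4600 in Treg and 2290 to 4720 in Tconv. The part of B cells in the Bank1 result was not tested.

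**Figure D4:**
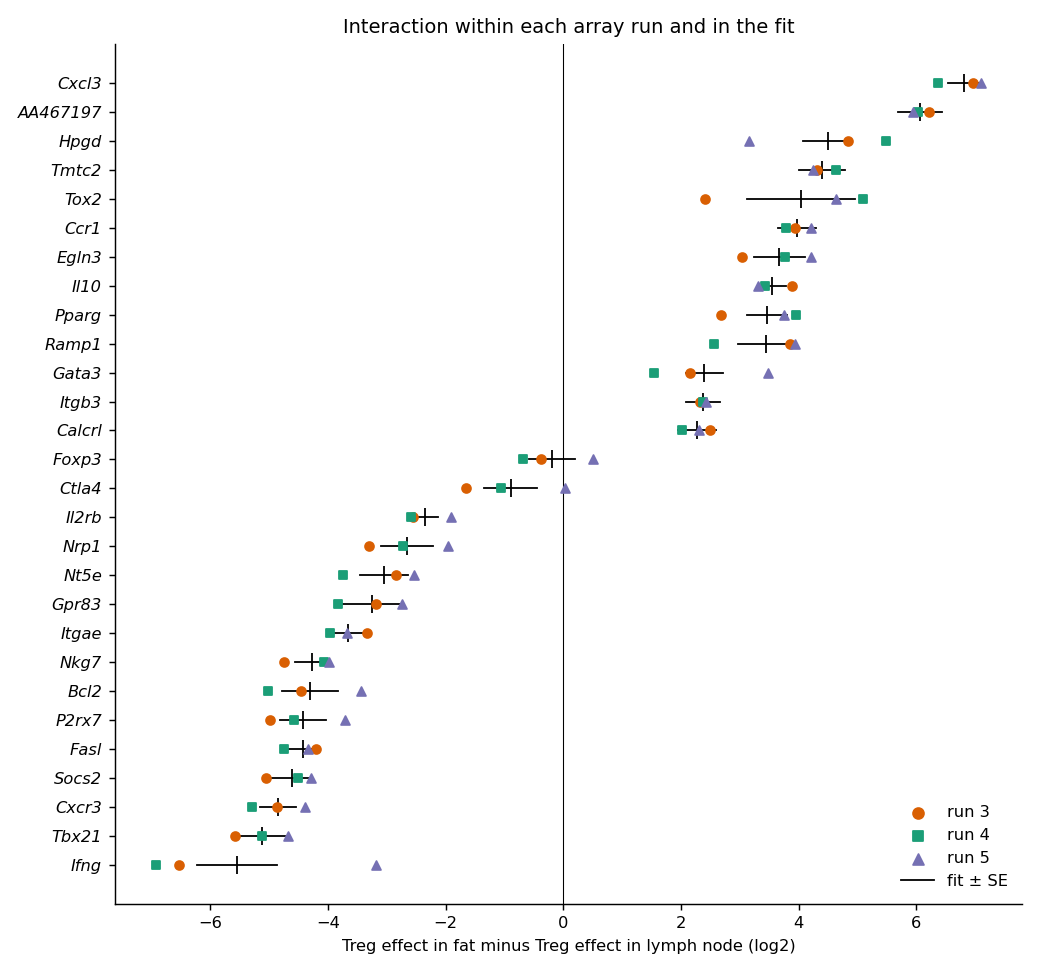
Interaction of 28 genes on the log2 scale within each of the 3 sets of neighbouring array file numbers (runs 3, 4 and 5), which hold each of the 4 groups once, with the fit and its standard error in black. One sign in all 3 runs was part of the rule that chose most of these genes, so their points lie on one side of 0 by choice; those of Foxp3 and Ctla4 span it.

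Cell division genes as a list leaned to the lower side: 26 of 29 tested members were below 0, and the median was -1.07. Kif23, given above as a reversal toward fat Treg, was not in this list. Calls were made for 4, all lower, against 2.69% of all tested genes. The proliferation marker Mki67 had 932, 718 and 1180 units in fat Tconv, 313 to 386 in fat Treg, 369 to 448 in lymph node Treg and 95.3 to 373 in lymph node Tconv (interaction -2.50 ± 0.57, limma adjusted p = 0.0133). Top2a, Ccne1 and Tyms were the other 3, at -2.21, -1.13 and -1.11. Tyms lay under the filter level in all 4 groups. Top2a lost its call without fat Treg replicate 2, fat Tconv 3, lymph node Treg 2, or lymph node Tconv 1 or 3. The call was lost for Ccne1 without any array but fat Tconv 2 and lymph node Tconv 2, and for Tyms without any but fat Treg 1, fat Tconv 1 and lymph node Tconv 2. With the replicate block 11 of the 29 were called lower. Type I interferon response genes had 5 lower of 22, against 2.69% of all tested genes, and a median of -0.56. Under the block 9 were lower. Of the 5 called without the block, Oas1a lost its call without any single array but fat Treg 1, fat Tconv 1 and lymph node Treg 1. Gbp3 lost its call without fat Treg 2 or 3, fat Tconv 2, lymph node Treg 2, or lymph node Tconv 1 or 3. Gbp2, an interferon-induced GTPase, was 3.03-fold higher in lymph node Treg and 1.22-fold lower in fat, the latter not called (interaction -1.88 ± 0.31, limma adjusted p = 0.00085). Ifit2 had 61.4 to 76.9 units in fat Treg, 165 to 432 in fat Tconv and 341 to 469 in lymph node.

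Immediate early and stress genes, which respond within minutes to stimuli and to cell handling, had much higher signals in fat in both cell types. Of 32 tested, 4 were higher and 2 lower, against 2.16% and 2.69% of all tested genes. The list median was -0.05, and its median fat minus lymph node difference was 2.46 in Treg and 2.44 in Tconv. Under the replicate block 5 were higher and 9 lower. Of the 4, Ier3 lost its call without fat Treg 1 or 3, fat Tconv 1 or 2, lymph node Treg 1 or 2, or lymph node Tconv 2 or 3. Fosb had 5710 to 7850 units in fat Treg, 1770 to 2390 in fat Tconv and 30.5 to 80.2 in lymph node. Atf3, a stress-induced factor, had 2300, 2510 and 2320 in fat Treg, 264 to 339 in fat Tconv and 24 to 36 in lymph node (interaction 2.79 ± 0.20, limma adjusted p = 1.27e-07). Fos, Jund and Egr1 had interactions of 0.06, -0.02 and 0.28, and none was called.

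**Figure D5:**
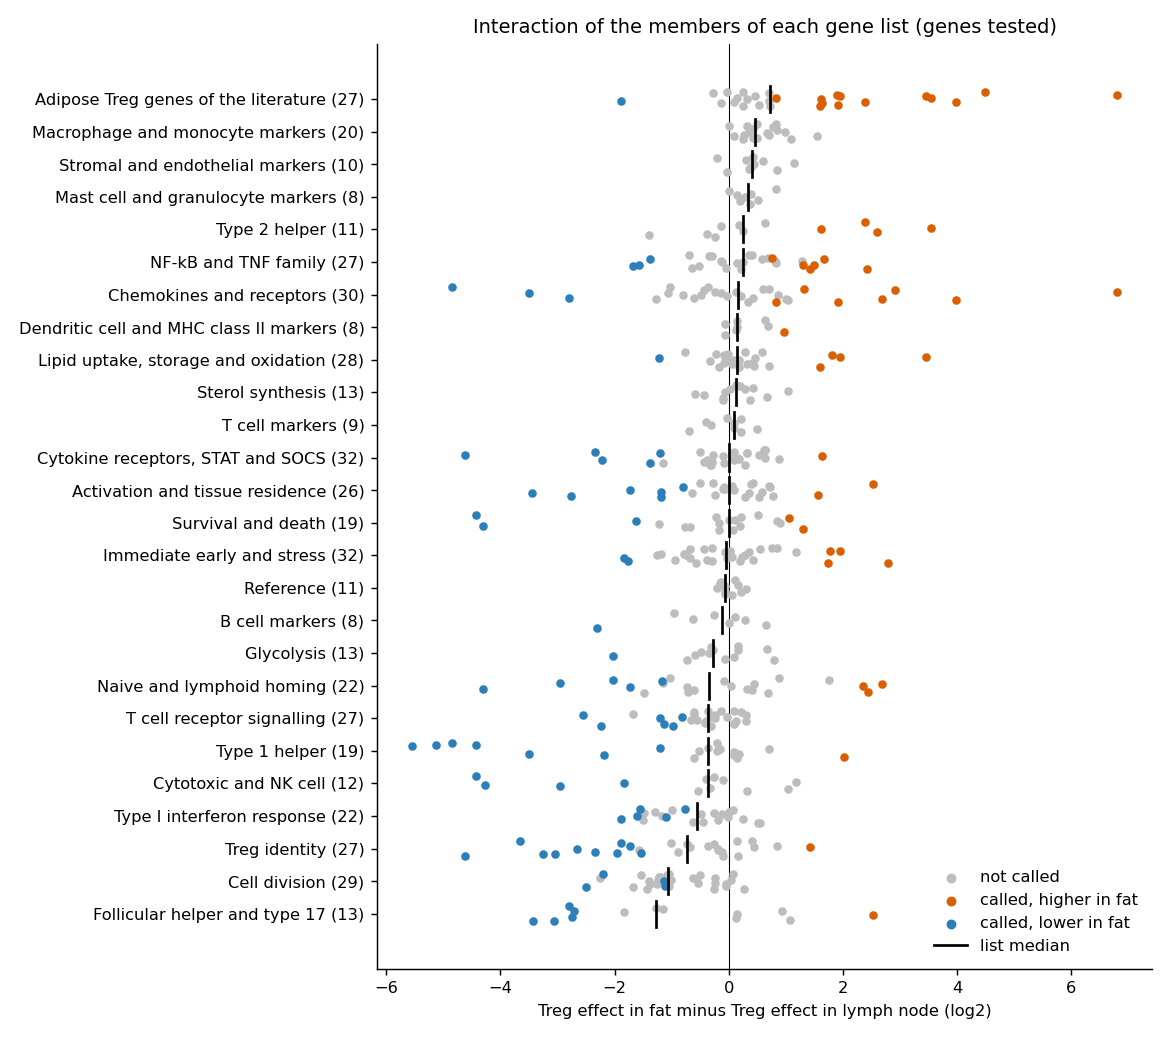
Interaction of each tested member of the gene lists with at least 8 tested members, in log2, with called members coloured and the list median as a black bar. Adipose Treg genes have the highest median (0.73) and follicular helper and type 17 genes the lowest (-1.27). No macrophage, stromal, reference or T cell marker is coloured.

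Averaging all probe sets of a gene, dim ones included, lowered several interactions by more than 1.5 times without ending the call: Tmtc2 to 2.84, Tox2 to 2.10, Kif23 to 1.49, Epas1 to 1.44, Fgf13 to -2.12, Marchf3 to -1.97, Ahr to -1.72 and Itgb1 to -1.57. It ended the calls of Il10ra (0.49), Top2a (-0.94), Ccne1 (-0.67), Satb1 (-1.01) and Nfatc2 (-0.14). The second, dimmer Il10ra probe set gave -0.17 and was not called. At the threshold, Pced1b (0.70) and Mbp (-0.61) were the last called, both at an adjusted p of 0.0492, and Mettl14 (-0.89) and Traf5 (-1.66) the first not called, at 0.0501 and 0.0503. The limits are 3 arrays per group and a fat scale that differs from the lymph node scale.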

How the data were processed

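RNA of sorted CD4 T cells was amplified, labelled and hybridised to Affymetrix mouse arrays, per the labels' protocols. The authors deposited RMA intensity values on a linear scale, made in GenePattern per the submitters' processing notes; which arrays were normalized together is not given in the sources used here. RMA brings arrays normalized together to one distribution, which hides global differences. The number of arrays limits the precision.

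Of 45101 probe sets, 64 were controls, and 34945 of the rest had 1 gene symbol in the platform annotation, 932 several and 9160 none. The probe set with the highest mean stood for its gene (18193 genes). Genes with at least 1 of 6 group means above the median of all values (log2 6.04, intensity 65.9) were tested, 12821 in all. A linear model of the 6 groups was fitted to the log2 values, with no pseudocount, by limma 3.58.1 (R 4.3.3). All 18 arrays entered it, so the thymus arrays add to the estimate of spread only. P-values were adjusted by the Benjamini-Hochberg method and called under 0.05. The script was tested on simulated data. Contrasts between tissues were centred on the median gene; the interaction was not.

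Patterns follow the calls of both Treg effects, and carriers the calls of both tissue contrasts. Named genes were the 15 largest interactions in each direction with 1 sign in the 3 runs, the 4 largest per pattern and direction, the 3 largest called per list and direction, and Foxp3, Il10, Pparg, Ifng, Tbx21, Gata3, Il1rl1, Ctla4 and Bcl2. Il1rl1 had no probe set with 1 symbol here. Further members, called or not, were named after their values were seen. The comparison and the 30 lists (546 genes, 496 with a probe set) were chosen with earlier results of these data known. A run is a set of neighbouring array file numbers in the labels, which do not say what the number marks.

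Replicate numbers come from the labels. Deviations of same-numbered Treg and Tconv arrays from their group means correlated at 0.35 to 0.68 in all 9 tissue pairs, so the numbers pair the samples. Alternatives were the replicate or run as a block, other normalizations, probe set rules, filters and thresholds, and each array left out in turn.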

Additional observations from a re-analysis of the deposited data

Results flagged for a closer look

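The Treg effect differed between fat and lymph node, by a test of the difference itself, in 622 genes (limma, adjusted p under 0.05). Among the reversals that the text names or could name by its rule, the interactions toward fat Treg were 3.15 for Kif23, 2.37 for Itgb3, 2.27 for Calcrl and 2.27 for Chd7. Those away from fat Treg were -2.03 for Hk2, -2.31 for Bank1, -3.04 for Nt5e, -3.62 for the helicase gene Ddx43, -3.89 for Marchf3, -4.27 for Nkg7, -4.36 for Gm8369, -4.43 for P2rx7 and -4.85 for Cxcr3. In each of these 13 genes the effect was called in both tissues with opposite sign.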

How the results depend on the processing

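No called gene named in the text changed sign under an alternative; of the 622 calls, 5 changed sign with the probe set of largest variance and 3 with values below the median signal raised to it. The latter setting gave 349 higher and 331 lower interactions, so that higher ones were the more numerous, and moved Foxp3, not called, to 0.40. With the replicate number as a block, 1416 interactions were called (599 higher, 817 lower), with 973 on the Treg side, 260 on the Tconv side, 901 fat only, 235 lost lymph node effects and 90 reversals; all 622 remained among them, and carriers there were taken from the fit without the block, since the block cannot be separated from tissue. With the array run as a block the counts were 1090 (455 and 635), 768, 215, 695, 198 and 55, with 101 opposite changes. At an adjusted p under 0.01 they were 348 (162 and 186), 263, 62, 243, 63 and 12, with 22 opposite changes. Leaving out 1 array at a time gave 468 (without lymph node Treg replicate 2) to 766 (without fat Tconv replicate 1) interactions, 215 to 297 higher and 253 to 469 lower. The same gave 344 to 569 on the Treg side, 85 to 141 on the Tconv side, 32 to 47 opposite, 320 to 519 fat only, 80 to 123 lost lymph node effects and 19 to 35 reversals. A fit of only the 12 fat and lymph node arrays gave 653 calls, with 546 of the 622 among them. Quantile normalization of all arrays gave 655 calls and brought the median fat shift to -0.01 in Treg and -0.04 in Tconv. In all, 277 of the 622 (135 higher, 142 lower) were called under every alternative that kept the threshold (those at an adjusted p under 0.01 or a size of at least 1 aside), and 415 with each array left out. Signals under the filter cannot show a loss.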

Other observations

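Thymus Treg and Tconv came from younger mice of another strain, BDC2.5/NOD, aged 4 to 6 weeks, so their values are given without a test. The thymus Treg effect lay nearer to the lymph node effect than to the fat effect in 549 of the 622 genes (88.3%) and nearer to the fat effect in 73. Among the 421 fat-only genes it was nearer to lymph node in 398 and to fat in 23. Among the 115 genes whose lymph node effect was not called in fat it was nearer to lymph node in 74 and to fat in 41. All 3 tissues share the one fit, and the interaction's own values set which genes were counted. The fat-only genes had a median Treg effect of 0.07 in lymph node and 0.04 in thymus. A thymus effect near 0 falls nearer to lymph node by that selection, so the count cannot show a likeness of thymus to lymph node.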
